A study of Homo sapiens with 54 samples.

Results

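H1, a human ESC line, was grown in 2 feeder-free media, and the cultures in MEF-conditioned medium (MEF-CM) were compared with the cultures in E8 Medium. Cultures were selected by their labels: the 3 H1 cultures labelled with MEF-CM and the 5 H1 cultures in E8 Medium that served as pre-cultures or were grown long-term with an FGF. Each culture was measured on 2 arrays, so the comparison used 16 of the 54 arrays and 8 of the 27 cultures of the series. The study asked whether FGFC, a heat-stable chimeric protein made of parts of FGF1 and FGF2, can take the place of bFGF (FGF2) in the culture of human pluripotent stem cells. MEF-CM is medium conditioned by mitomycin C-treated mouse embryonic fibroblasts, and its H1 cultures received 5 ng/mL of FGF: a pre-culture with bFGF (passage 53), a culture of 41 days with bFGF and a culture of 41 days with FGFC (both passage 63). E8 Medium is a defined medium that holds insulin and TGF-beta 1, and its H1 cultures received 100 ng/mL of FGF: 3 pre-cultures with bFGF (passages 48, 49 and 50, of experiments 1, 2 and 3), a culture of 30 days with bFGF and a culture of 30 days with FGFC (both passage 58). All 8 cultures were grown on Matrigel without feeder cells. Medium, FGF dose and passage changed together, so their parts cannot be told apart. The labels do not state which long-term culture was started from which pre-culture, but the passages and the shared experiment number 1 fit an origin of both 41-day cultures in the single MEF-CM pre-culture and of both 30-day cultures in the E8 pre-culture of experiment 1. The 3 MEF-CM cultures may thus be 1 lineage, and the p-values of this comparison measure the spread between these cultures of 1 line.

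As background, bFGF keeps human ESCs undifferentiated mainly through FGF receptors and the kinases MEK and ERK, and DUSP6, a phosphatase that removes the activating phosphates from ERK, is itself induced by ERK, so its transcript is often used as a readout of FGF signalling. TGF-beta, Nodal or activin acts beside FGF through SMAD2 and SMAD3. Conditioned medium also carries proteins secreted by fibroblasts, together with the ingredients of the base medium, whose composition is not given in the sources used here for the H1 cultures. Expression is given as normalized signal, which is the log2 of the array's processed signal minus the 75th percentile of that array, so 0 is the level below which 75% of probes lie and 1 unit is a factor of 2. A difference is MEF-CM minus E8 on this log2 scale. Adjusted p-values are limma's, with Benjamini-Hochberg adjustment over all 42405 probes and a threshold of 0.05. Where 3 values are listed for MEF-CM they are in the order pre-culture, bFGF and FGFC, and 5 values for E8 are in the order pre-cultures of experiments 1, 2 and 3, bFGF and FGFC.

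Expression differed between the media for a large part of the probes. Of 42405 probes, 10679 (25.2%) passed the test, of which 3140 (7.40% of all probes) were higher and 7539 (17.8%) lower in MEF-CM, and the cultures of both media did not overlap for 32.0% of probes. The rule of the study's methods, a 2-fold difference of the averages, was met by 8063 probes (19.0%), of which 1799 were higher and 6264 lower. The split between higher and lower depended on the treatment of dim probes: among probes that Agilent's software marked as well above background on every array of at least 1 group, 6487 passed and 49.0% of them were higher, against 29.4% of all probes that passed. Quantile normalization gave 7019 probes, 49.3% of them higher. In the other direction, normexp background correction gave 3106 higher and 11152 lower probes, and flooring signals at the lowest signal well above background of each array 3209 higher and 14446 lower. By the 2-fold rule, 1672 probes were higher and 1272 lower among those well above background, 2145 and 1929 with quantile normalization, 641 and 654 with normexp, and 1229 and 10389 with the floor. The median difference over all probes was -0.13, and over the 19720 genes with a named probe, each represented by its brightest probe, it was -0.16. Under quantile normalization these medians were -0.03 and -0.07. On the gene level 5404 of 19720 genes (27.4%) passed, 8.19% higher and 19.2% lower, and the cultures of both media did not overlap for 35.9% of genes. Of the 5404 genes, 3636 were well above background on every array of their higher group, and these comprised 1563 higher and 2073 lower genes. Normexp here adds 50 to each signal, so differences of dim genes shrink: of the 137 named genes that passed, 47 had a difference over 1.5 times smaller, 40 of them not well above background on all arrays, and 10 lost the call, against 12 and 6 with the floor. Because RNA was taken from whole cultures, fewer cells of a type and less RNA per cell cannot be told apart. The MEF-CM arrays had 75.2% to 79.2% of probes well above background and the E8 arrays 60.1% to 74.5%, and the lowest processed signal of an array was 1.75 to 2.64 in MEF-CM and 2.02 to 6.85 in E8. The part of these values in the excess of lower calls was not tested. All MEF-CM arrays were scanned on 1 day (2 slides) and the E8 arrays on 4 other days (5 slides), so medium and scan day cannot be told apart. Without the 41-day FGFC culture in MEF-CM only 3416 probes passed, without the 41-day bFGF culture 5212, without the MEF-CM pre-culture 5715 and without the E8 pre-culture of experiment 3 6313.

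**Figure D1:**
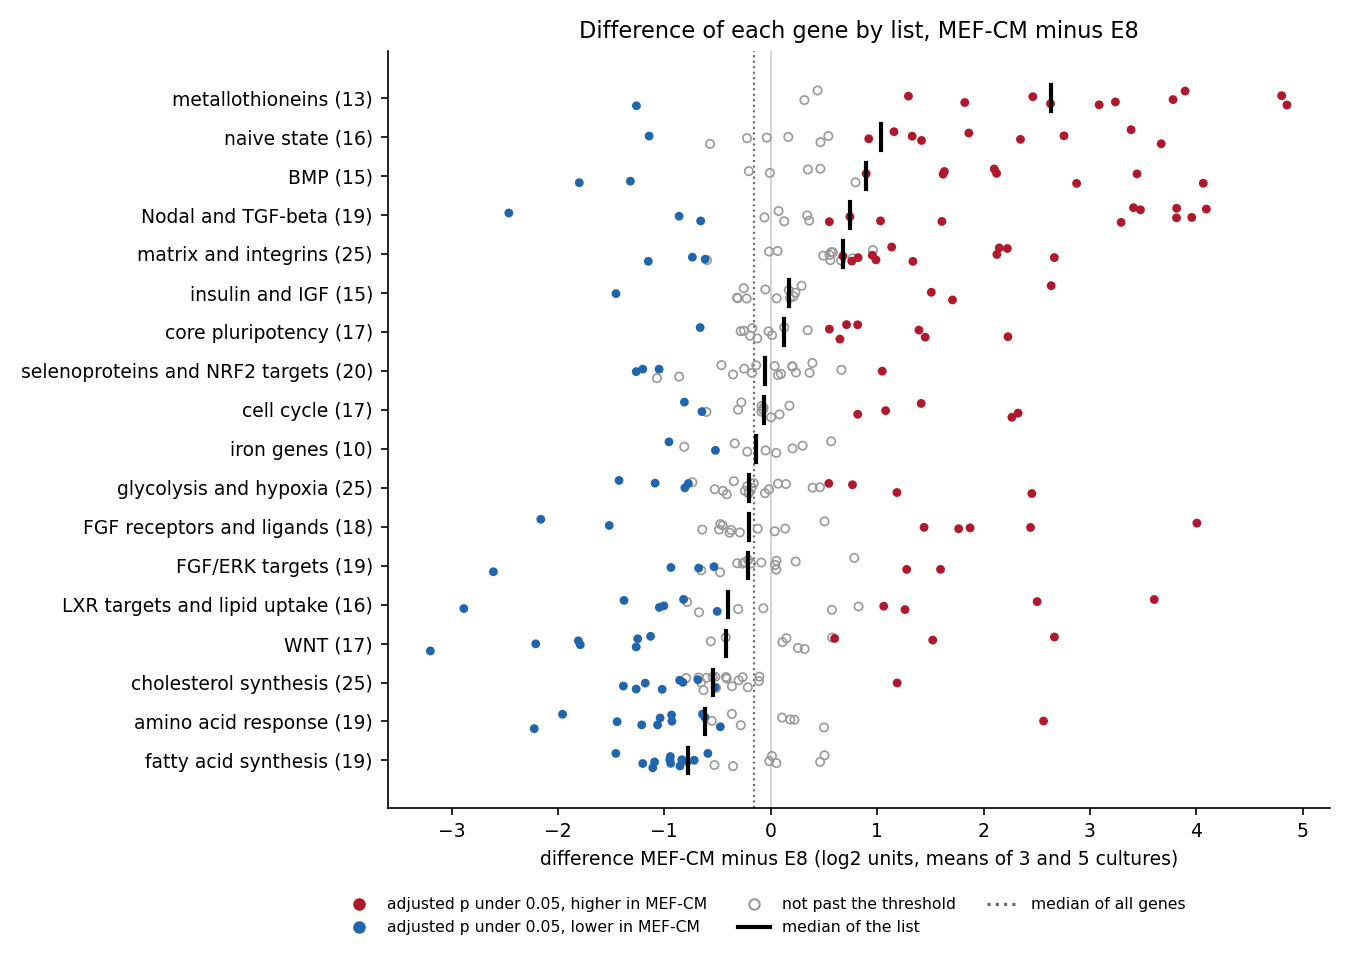
Difference between MEF-CM and E8 (horizontal axis, log2 units) for each gene of 18 lists, with the number of genes measured in parentheses; filled points passed the test, open points did not, black bars are list medians and the dotted line is the median of all genes. The metallothioneins have the highest median, 2.63, and the fatty acid synthesis genes the lowest, -0.78.

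DUSP6 was lower in every MEF-CM culture. Its normalized signal was 3.06, 2.72 and 2.80 in MEF-CM and 5.40, 5.18, 5.41, 5.58 and 5.74 in E8. The groups did not overlap. The difference was -2.61 ± 0.17 (SE, adjusted p = 7.51e-05), a 6.09-fold lower signal, and the exact two-sided permutation p, the smaller tail doubled, was 0.0357, the smallest that 3 against 5 cultures can give. With FGFC in place of bFGF the signal in MEF-CM was 2.80 against 2.72, with 1 culture of each at the same dose of 5 ng/mL. When FGF was left out of E8 Medium for 4 days, DUSP6 was 0.92, 3.60 and 3.72 in the lowest, median and highest of 3 cultures, against 5.23, 5.25 and 5.74 with bFGF, a difference of -2.66 (adjusted p = 0.0473). Both kinds of culture carry the same 3 experiment numbers, but these values are listed by size and are not matched by experiment. The fit also took the 2 groups as unpaired. This adjusted p and all later calls without FGF therefore leave out the pairing by experiment. The MEF-CM values of 2.72 to 3.06 lay below the 2 higher cultures without FGF and above the lowest.

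Most ERK-responsive genes measured did not pass the test in H1. Of 19 measured genes of a list of FGF/ERK targets, 4 fell, DUSP6 among them, 2 rose and 13 did not pass the test, which is near the shares of all genes (19.2% lower and 8.19% higher), with a median difference of -0.21, near that of all genes. Over all alternative settings the falls numbered 1 to 6, with 6 under normexp, and the rises 1 to 3. DUSP5, a phosphatase of nuclear ERK, was -1.28, -1.30 and -1.17 in MEF-CM and -0.66, -0.53, -0.16, -0.18 and -0.05 in E8, and fell by 0.94 (adjusted p = 0.00731). The other falls were small: ETV1, an ETS transcription factor, differed by -0.68 (adjusted p = 0.0053), and SPRY4, a feedback inhibitor of receptor tyrosine kinase signalling, by -0.53 (adjusted p = 0.0353). SPRY4 passed on 1 of its 2 probes, and its call was lost when any of 5 of the 8 cultures was left out (adjusted p = 0.051 to 0.144), with the culture arm (pre-culture, bFGF or FGFC) as a block (0.0764) and with quantile normalization (0.0886). ETV4 was 1.47, 1.47 and 1.54 in MEF-CM and 1.22, 1.62, 1.34, 1.42 and 1.66 in E8, and the groups overlapped (difference 0.04, adjusted p = 0.856). ETV5 differed by -0.65 (adjusted p = 0.0898) and MYC by -0.48 (adjusted p = 0.0534). MYC passed as lower with quantile normalization (adjusted p = 0.0452), with normexp (0.0282) and among probes well above background (0.0449). ETV5 passed as lower with normexp (0.0427). Of 14 alternative settings, MYC kept its result in 7 and ETV5 in 11.

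The 2 list members that rose were IER3 and FOSL1. IER3, an immediate early gene, was 3.46, 2.56 and 3.50 in MEF-CM and 1.57, 1.36, 1.71, 1.79 and 1.46 in E8, with no overlap, a difference of 1.60 ± 0.23 (SE, adjusted p = 0.00271). FOSL1, a subunit of the AP-1 transcription factor, was -1.57, -1.51 and -1.35 in MEF-CM and -2.58, -2.57, -2.48, -3.08 and -3.08 in E8, a difference of 1.28 ± 0.19 (SE, adjusted p = 0.00278). Without FGF in E8 Medium the same list had 7 genes lower and 3 higher than with bFGF, where 11.1% of genes were lower and 15.6% higher. There IER3 differed by -2.09 (adjusted p = 0.011), MYC by -2.02 (adjusted p = 0.00168), SPRY4 by -2.40 (adjusted p = 0.0128) and ETV4 by -1.44 (adjusted p = 0.00776). Set side by side, DUSP6 was lower in MEF-CM and lower without FGF, while IER3 was higher in MEF-CM and lower without FGF.

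**Figure D2:**
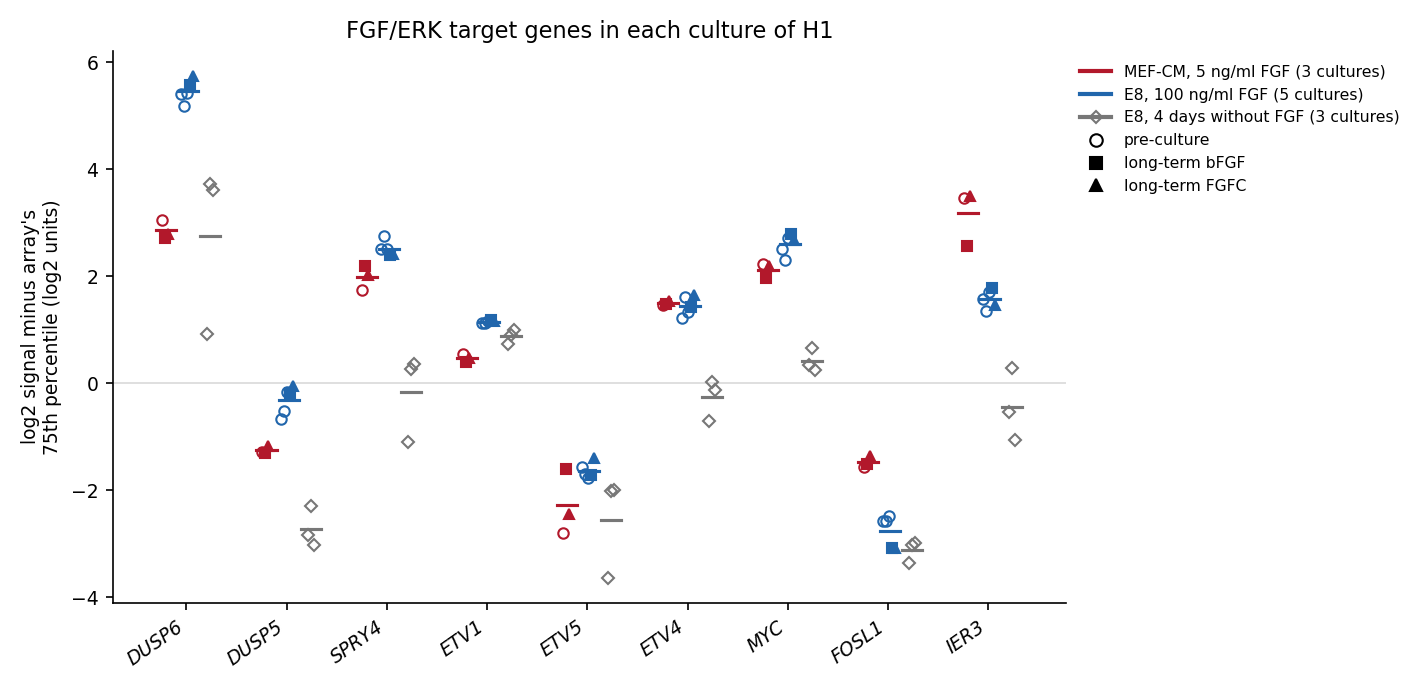
Normalized signal (vertical axis, log2 units) of 9 FGF/ERK target genes in each H1 culture, with bars at group means: red MEF-CM with 5 ng/mL of FGF, blue E8 with 100 ng/mL, grey E8 after 4 days without FGF; open circles are pre-cultures, squares long-term bFGF and triangles long-term FGFC. DUSP6 in MEF-CM (2.72 to 3.06) lies between the lowest culture without FGF (0.92) and the other 2 (3.60 and 3.72), while IER3 in MEF-CM (2.56 to 3.50) lies above all others.

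Among 18 genes for FGF receptors, ligands and binding proteins, 5 rose and 2 fell, against 8.19% of all genes higher and 19.2% lower. The falls numbered 4 with quantile normalization, 4 among probes well above background, 6 with the floor and 7 with normexp. FGFR3, a receptor, was 3.30, 3.64 and 3.41 in MEF-CM and 1.84, 1.94, 1.42, 1.49 and 1.19 in E8, a difference of 1.87 ± 0.20 (SE, adjusted p = 0.000629). Its level was higher in every MEF-CM culture than in any E8 culture. FGF2, the endogenous gene of the added factor, was 1.49, 2.01 and 1.86 against -0.03, 0.18, 0.06, -0.01 and -0.10 and rose by 1.77 (adjusted p = 0.000272), on both of its probes. FGF4, an autocrine ligand of pluripotent cells, rose by 2.44 (adjusted p = 0.000991) and was well above background on 4 of 10 E8 arrays. With normexp FGF4 differed by 0.69 and still passed (adjusted p = 0.0138). FGF1 was well above background on every MEF-CM array and on no E8 array, a signal at least 4.62-fold higher (adjusted p = 0.000125), although its other probe did not pass. FGFBP3, a secreted carrier of FGFs, was 0.95, 1.08 and 1.52 in MEF-CM and 2.82, 2.80, 3.36, 3.51 and 4.22 in E8 and fell by 2.16 (adjusted p = 0.0031). FGF19, an endocrine FGF, differed by -1.52 (adjusted p = 0.000683). FGFR1, the main FGF receptor of human ESCs, differed by -0.29 (adjusted p = 0.215).

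Transcripts that define the undifferentiated state were high in all 8 cultures. POU5F1 (OCT4), the transcription factor at the centre of the pluripotency network, was 8.03, 7.93 and 8.08 in MEF-CM and 8.01, 8.00, 8.11, 8.29 and 8.53 in E8, and the groups overlapped. NANOG was 4.28, 4.26 and 4.34 in MEF-CM and 4.04, 4.02, 4.39, 4.53 and 4.39 in E8. The differences were -0.17 ± 0.16 (SE, adjusted p = 0.459) for POU5F1, 0.01 ± 0.16 (SE, adjusted p = 0.962) for NANOG and 0.35 ± 0.17 (SE, adjusted p = 0.16) for SOX2. SOX2 kept its result in 12 of 14 alternative settings and passed as higher with quantile normalization (0.37, adjusted p = 0.0457). GAPDH, a glycolytic enzyme, differed by -0.21 ± 0.20 (SE, adjusted p = 0.472). CRIPTO, a Nodal co-receptor, LIN28A, an RNA-binding protein, and L1TD1 also did not pass, with differences of 0.13, -0.19 and -0.25.

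Of the 17 genes of the core pluripotency list, 7 rose and 1 fell (median 0.13), against 8.19% and 19.2% of all genes. UTF1, a chromatin factor of undifferentiated cells, was 3.35, 5.13 and 3.77 in MEF-CM and 1.998, 2.23, 1.83, 1.75 and 1.46 in E8, a difference of 2.23 ± 0.37 (SE, adjusted p = 0.00462). PRDM14, a repressor that safeguards pluripotency, rose by 1.39 (adjusted p = 0.00248). Smaller rises were those of FOXD3, 0.82 (adjusted p = 0.0486), and of DNMT3B, a DNA methyltransferase, 0.71 (adjusted p = 0.0332). FOXD3 lost its call when any of 7 cultures was left out (adjusted p = 0.0667 to 0.155), DNMT3B when any of 4 was (0.0564 to 0.111). Neither passed with arm as a block (0.0913 and 0.0641). The number of rises was 4 without the E8 pre-culture of experiment 3 or without the MEF-CM pre-culture, and 3 without either 41-day culture, and the fall was not called without either of the latter.

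Genes linked to the naive state, an earlier form of pluripotency, were counted as higher more often than genes in general: 9 of 16 rose and 1 fell, with a median difference of 1.04, against 8.19% of all genes higher. KLF5, a transcription factor, was -2.32, -2.63 and -2.004 in MEF-CM and -5.00, -5.71, -6.66, -5.60 and -6.96 in E8, a difference of 3.67 ± 0.43 (SE, adjusted p = 0.000907). KLF4 was -2.73, -2.59 and -2.62 against -4.01, -4.65, -4.49, -4.63 and -4.77, a difference of 1.86 ± 0.19 (SE, adjusted p = 0.000493). KLF2, with 1 of 10 E8 arrays well above background, differed by 2.35 (adjusted p = 0.000369). With normexp, KLF5, KLF4 and KLF2 differed by 1.20, 0.71 and 0.40 and still passed, as they did with the floor. TFCP2L1 differed by 1.42 (adjusted p = 0.00415). NLRP7, an inflammasome-related gene of oocytes and early embryos, differed by 3.39 (adjusted p = 0.00867). Both TBX3 and NLRP7 were dim in E8, with 0 and 4 of 10 E8 arrays well above background, and TBX3 was at least 2.08-fold higher in MEF-CM. KLF5 was well above background on 3 E8 arrays. Falls numbered 3 with normexp and 0 among probes well above background. KLF17, DPPA5, ESRRB and SUSD2 differed by 0.47, 0.17, -0.22 and -0.57 and did not pass. PRAME, the member that fell, was well above background on 1 of 6 and 2 of 10 arrays, and the number of falls was 0 to 2 with 1 culture left out.

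The metallothioneins, small cysteine-rich proteins that bind zinc and copper and whose genes are induced by metal through the transcription factor MTF1, rose together. Of 13 genes of the list, 10 rose, 2 did not pass and 1, MT4, fell, although none of the 16 arrays had it well above background, against 8.19% of all genes higher. The median difference was 2.63. In MT1G the normalized signal was 3.64, 2.49 and 3.29 in MEF-CM and -1.26, -1.15, -0.50, -1.47 and -3.95 in E8, a difference of 4.80 ± 0.70 (SE, adjusted p = 0.00259). MT1M was 0.65, 0.21 and 0.71 against -4.83, -3.36, -3.96, -4.12 and -5.37, a difference of 4.85 ± 0.41 (SE, adjusted p = 0.000239). MT2A, the most widely expressed member, was 4.30, 3.77 and 4.15 against 1.34, 0.95, 1.72, 1.95 and 1.25, a 6.19-fold rise (adjusted p = 0.000351). In each of the 10 genes that rose, the 41-day bFGF culture was the lowest MEF-CM culture and still lay above every E8 culture. The groups did not overlap for 35.9% of all genes. They did not for 3568 of the 3636 genes called and well above background, so this adds little to the calls.

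The other rises in the family were 3.89 for MT1F, 3.78 for MT1E, 3.24 for MT1B, 3.09 for MT1L, 2.46 for MT1H, 1.82 for MT1X and 1.29 for MT1A, with adjusted p-values of 0.000127 to 0.00551. The transcripts of the MT1 genes are near-identical, and a probe for 1 of them may take up signal from another, so their values are not independent. MT3, the member typical of neurons, was 2.47, 2.23 and 2.50 in MEF-CM and 2.01, 2.34, 1.94, 1.75 and 1.76 in E8 (difference 0.44, adjusted p = 0.0912). SLC30A1, a zinc exporter also induced through MTF1, was 0.48, -0.23 and 0.40 against -0.70, -0.52, 0.11, 0.25 and 0.37 (difference 0.32, adjusted p = 0.462). The 30-day FGFC culture had the lowest E8 signal in each gene that rose except MT2A. The number of rises was 10 or 11 whichever culture was left out, while the call of MT4 was lost when any of 7 cultures was left out, with arm as a block (0.0649) and with quantile normalization (0.517).

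After 4 days in E8 Medium without FGF, 8 of the 13 genes were lower than with bFGF and 0 higher, against 11.1% and 15.6% of all genes, MT1G by 3.01 (adjusted p = 0.0136) and MT2A by 1.49 (adjusted p = 0.0123). In the other lines of the series, 8 of the 13 were higher and 1 lower in 6 cultures of KhES-1 and 201B7 on fibroblast feeders than in 3 cultures of 253G1 in E8 Medium, where 3.64% of all genes were higher and 16.6% lower.

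**Figure D3:**
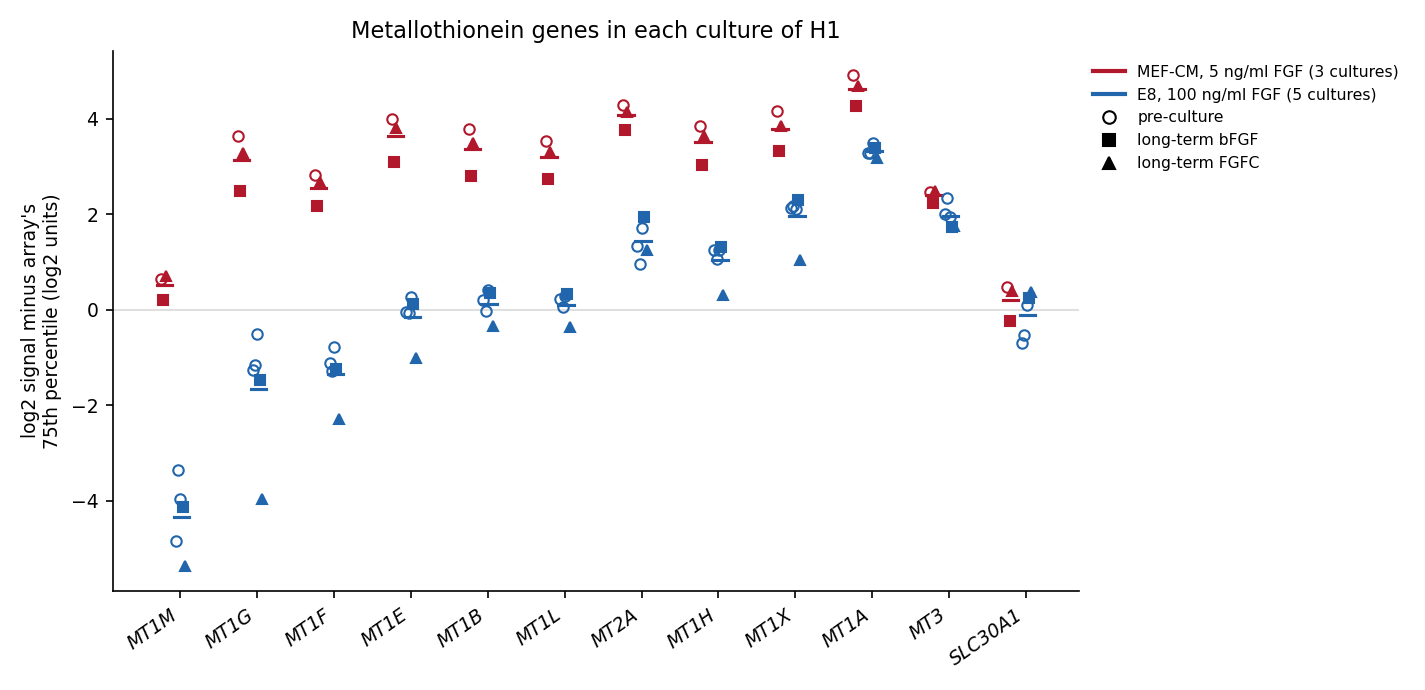
Normalized signal (vertical axis, log2 units) of 11 metallothionein genes and SLC30A1 in each H1 culture, bars at group means, red MEF-CM and blue E8; open circles are pre-cultures, squares long-term bFGF and triangles long-term FGFC. The 3 MEF-CM cultures lie above all 5 E8 cultures in 10 genes, and the groups overlap in MT3 and SLC30A1. Over all genes, the groups do not overlap for 35.9%.

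Promoter sequences are shown for the metallothioneins because these genes rose together and the element through which MTF1 acts is known. The core of the metal response element, TGCNCNC, was searched on both strands in the 250 bases before the gene start (RefSeq, GRCh38.p14), which the table at hand gives for 6 of the 13 list members. All 6 held at least 1 match, as did 48.3% of 27305 genes in the table, and 5 of 6 held 4 or more, as did 1.67% of all genes. The matches were 7 in MT2A, 4 in MT1X, 8 in MT1H, 5 in MT1B, 5 in MT4 and 1 in SLC30A1, so MT4, which was not well above background, held as many as MT1B. MT2A, MT1X, MT1H, MT1B and MT4 belong to 1 gene family on chromosome 16, so the 5 genes with 4 or more matches do not count as independent. Below, the last 180 bases before the start are printed 5′ to 3′ on the gene's strand, with matches to the core on either strand in capitals.
MT2A, chr16:56608404-56608583, plus strand: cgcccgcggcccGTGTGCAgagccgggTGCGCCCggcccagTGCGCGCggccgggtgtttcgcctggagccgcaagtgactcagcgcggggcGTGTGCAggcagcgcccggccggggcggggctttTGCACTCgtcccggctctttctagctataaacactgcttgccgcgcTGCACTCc
MT1X, chr16:56682290-56682469, plus strand: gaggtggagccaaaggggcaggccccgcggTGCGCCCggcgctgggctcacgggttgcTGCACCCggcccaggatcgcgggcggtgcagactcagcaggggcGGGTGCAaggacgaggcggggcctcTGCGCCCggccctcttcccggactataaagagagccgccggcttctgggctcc
MT1H, chr16:56669634-56669813, plus strand: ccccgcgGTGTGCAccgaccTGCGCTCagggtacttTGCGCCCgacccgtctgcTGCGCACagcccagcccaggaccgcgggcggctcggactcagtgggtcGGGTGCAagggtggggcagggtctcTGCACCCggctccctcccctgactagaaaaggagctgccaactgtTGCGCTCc
SLC30A1, chr1:211579162-211579341, minus strand: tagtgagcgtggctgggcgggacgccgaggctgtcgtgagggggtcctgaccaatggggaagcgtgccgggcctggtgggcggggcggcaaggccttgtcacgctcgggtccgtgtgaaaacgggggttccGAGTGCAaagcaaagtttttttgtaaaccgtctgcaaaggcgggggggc
The first 3 genes rose in MEF-CM, and SLC30A1 did not pass the test. A match is a description of the letters and not a measured binding site.

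Nodal, a TGF-beta family ligand of the early embryo that signals through SMAD2 and SMAD3, and its feedback inhibitors were higher in MEF-CM. NODAL was 2.58, 1.87 and 2.69 in MEF-CM and -0.55, -0.61, -1.28, -1.46 and -3.27 in E8. Every MEF-CM culture lay above every E8 culture, and the 30-day FGFC culture was the lowest of the E8 cultures. The difference was 3.81 ± 0.58 (SE, adjusted p = 0.00305), a 14.1-fold rise. LEFTY2, a secreted Nodal inhibitor, was 1.87, 0.99 and 2.35 against -0.48, -0.88, -1.46, -1.99 and -3.88, a difference of 3.47 ± 0.71 (SE, adjusted p = 0.0109). LEFTY1 was 5.87, 4.18 and 5.75 against 3.21, 3.09, 2.39, 1.94 and -0.78, a difference of 3.29 ± 0.87 (SE, adjusted p = 0.0262). The groups did not overlap in either LEFTY gene. LEFTY2 did not pass without the 41-day FGFC culture in MEF-CM (adjusted p = 0.0573), and LEFTY1 did not without that culture (0.104), without the MEF-CM pre-culture (0.0903) or without the E8 pre-culture of experiment 3 (0.05002).

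Of the 19 genes of the Nodal and TGF-beta list, 11 rose and 3 fell, with a median difference of 0.74, against 8.19% of all genes higher and 19.2% lower. CER1, a secreted antagonist of Nodal and BMP, was well above background on no E8 array and at least 3.56-fold higher in MEF-CM (adjusted p = 0.00355). The 41-day bFGF culture was the lowest MEF-CM culture in NODAL, LEFTY1, LEFTY2 and CER1. INHBA, which encodes the subunit of activin A, was 0.86, 1.07 and 1.01 against -3.21, -2.80, -2.73, -2.82 and -2.61, a difference of 3.82 ± 0.16 (SE, adjusted p = 1.93e-05). TGFB1 itself rose by 1.61 (adjusted p = 0.000703). INHBE, a subunit gene of activin E, went the other way, with -3.36, -3.04 and -3.24 in MEF-CM and 0.46, 0.03, -1.36, -1.53 and -1.38 in E8 (difference -2.46, adjusted p = 0.0087). SMAD7, PMEPA1 and FOXH1 differed by 0.36, -0.06 and 0.07 and did not pass.

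In the BMP list, 8 of 15 genes rose and 2 fell (median 0.90), where 8.19% of all genes rose and 19.2% fell. BMP4, a ligand, was -0.57, -0.33 and -0.69 in MEF-CM and -3.70, -3.76, -3.90, -3.85 and -4.64 in E8, a difference of 3.44 ± 0.23 (SE, adjusted p = 8.5e-05). GREM1, an antagonist of BMP ligands, was -0.82, -1.16 and -0.49 against -4.25, -5.38, -4.97, -5.36 and -4.49, a difference of 4.07 ± 0.30 (SE, adjusted p = 0.000127), with 3 of 10 E8 arrays well above background. The targets of BMP signalling did not move together. ID1 was 4.24, 4.74 and 4.29 in MEF-CM and 1.65, 1.85, 2.66, 2.67 and 2.68 in E8 and rose by 2.12 (adjusted p = 0.00197), and ID4 rose by 2.87 (adjusted p = 5.72e-05). ID3 was 1.84, 2.10 and 1.85 against 2.59, 2.98, 3.38, 3.55 and 3.76 and fell by 1.32 (adjusted p = 0.0097, or 0.0503 without the 41-day FGFC culture). ID2 differed by -0.01 (adjusted p = 0.968). Without FGF in E8 Medium, 12 of the 15 genes were higher than with bFGF and 0 lower, against 15.6% and 11.1% of all genes in that comparison, BMP4 by 3.37, ID1 by 2.81 and ID3 by 1.15, and ID3 had opposite signs in these comparisons. The number of falls in MEF-CM was 1 without the E8 pre-culture of experiment 3 or the MEF-CM pre-culture, and 0 without the 41-day FGFC culture, and it was 5 with the floor and 1 with quantile normalization or among probes well above background.

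In the WNT list, 3 of 17 genes rose and 7 fell, against 8.19% and 19.2% of all genes, with a median of -0.42. Quantile normalization left 3 rises and 4 falls and turned the median to 0.12, so no direction is given for the list. SFRP1, a secreted WNT antagonist, was 1.04, 0.74 and 0.77 in MEF-CM and 3.69, 3.63, 4.22, 4.23 and 4.49 in E8, a difference of -3.20 ± 0.22 (SE, adjusted p = 0.000104). SFRP2, of the same family, was 2.65, 2.59 and 2.22 against 4.32, 4.25, 4.31, 4.35 and 4.23, a difference of -1.81 ± 0.14 (SE, adjusted p = 0.000162). APCDD1, a membrane inhibitor of WNT, fell by 2.21 (adjusted p = 0.000691). AXIN2, a feedback target of beta-catenin, was 0.87, 0.39 and 0.74 against -1.09, -0.97, -1.06, -0.76 and -0.40, a difference of 1.52 ± 0.20 (SE, adjusted p = 0.00161). The ligand gene WNT3 was 0.11, 0.11 and -0.11 against -1.35, -1.36, -2.97, -3.25 and -4.22. Its difference, 2.67 (adjusted p = 0.0195), did not pass without the MEF-CM pre-culture, the 41-day bFGF or the 41-day FGFC culture (adjusted p = 0.056, 0.0649 and 0.0691). Of the 7 falls, those of LGR5 and DKK4 concern genes not well above background on any MEF-CM array, and LGR5 on no E8 array either. The number of falls was 4 without the MEF-CM pre-culture, without the 41-day bFGF culture or without the E8 pre-culture of experiment 3, and 3 without the 41-day FGFC culture; the number of rises was 1 without the MEF-CM pre-culture or the 41-day FGFC culture.

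**Figure D4:**
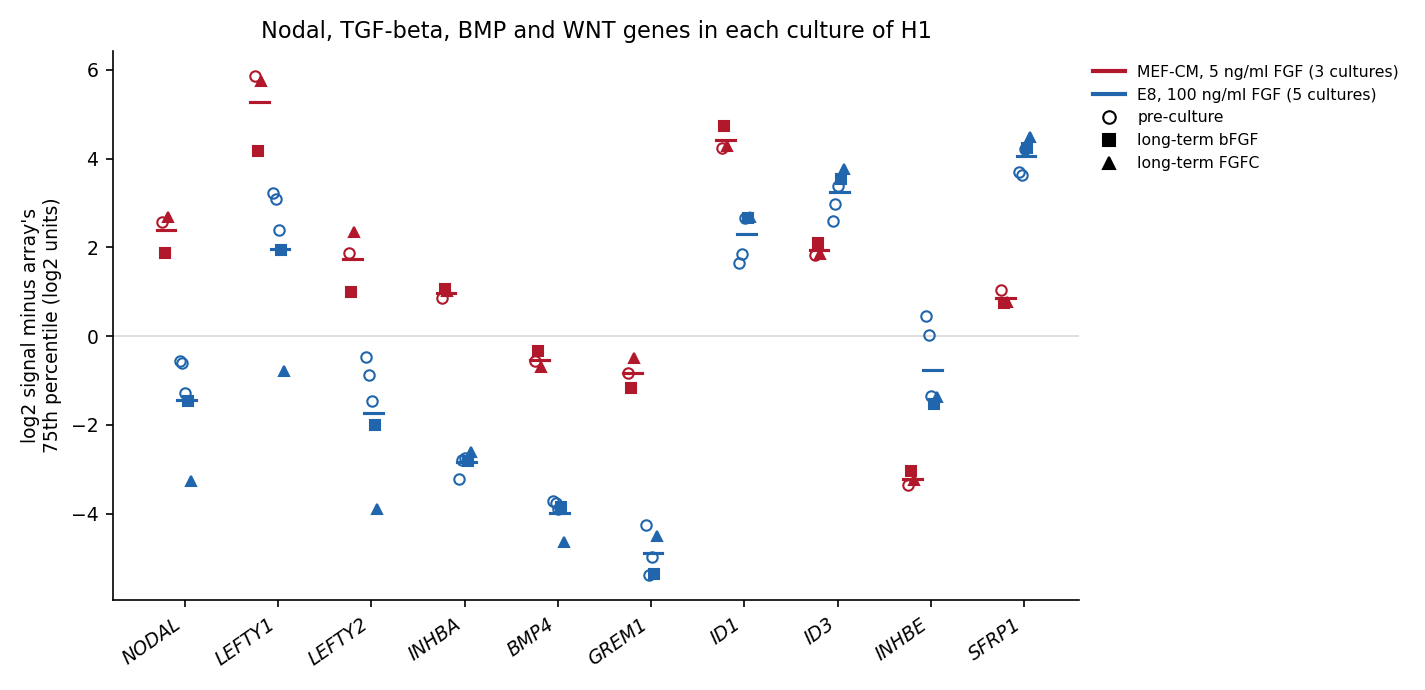
Normalized signal (vertical axis, log2 units) of 10 genes of the Nodal, TGF-beta, BMP and WNT lists in each H1 culture, bars at group means, red MEF-CM and blue E8; open circles are pre-cultures, squares long-term bFGF and triangles long-term FGFC. MEF-CM lies above E8 in NODAL, LEFTY1, LEFTY2, INHBA, BMP4, GREM1 and ID1, and below it in ID3, INHBE and SFRP1.

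Many genes of fatty acid synthesis and some of cholesterol synthesis were lower in MEF-CM. Of 19 genes of fatty acid synthesis and desaturation, 12 fell, 0 rose and 7 did not pass (median -0.78), against 19.2% of all genes lower. SREBF1, the transcription factor that drives this pathway, was 3.45, 3.56 and 3.37 in MEF-CM and 4.59, 4.74, 4.56, 4.69 and 4.73 in E8, a difference of -1.20 ± 0.12 (SE, adjusted p = 0.000557), on 1 of its 2 probes. ELOVL6, an elongase, was 1.08, 1.12 and 0.97 against 1.87, 2.14, 2.25, 2.29 and 2.27, a difference of -1.11 ± 0.14 (SE, adjusted p = 0.00154). ACSS2, which makes acetyl-CoA from acetate, and ACSL4, which activates polyunsaturated fatty acids, fell by 1.46 (adjusted p = 0.00601) and 1.09 (adjusted p = 0.00588). FASN, fatty acid synthase, was 3.38, 3.45 and 3.53 against 3.77, 4.38, 4.57, 4.51 and 4.74 (difference -0.94, adjusted p = 0.0179), and did not pass without the MEF-CM pre-culture, the 41-day bFGF or the 41-day FGFC culture (adjusted p = 0.0575, 0.0587 and 0.0649). The falls were moderate in size, none over 1.46, and the count was 8 to 12 with 1 culture left out, 7 with only long-term cultures and 4 with only bFGF cultures.

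In the cholesterol list, 24 of 25 genes had a difference below 0, against 62.7% of all genes. Of the 25, 8 fell, 1 rose and 16 did not pass (median -0.55), against 19.2% of all genes called lower and 8.19% higher. In E8 Medium without FGF, 8 of the 25 were higher than with bFGF and 2 lower, against 15.6% and 11.1% of all genes. SC5D, a late enzyme of the pathway, was -3.02, -2.53 and -2.93 in MEF-CM and -1.09, -1.37, -1.71, -1.63 and -1.996 in E8, a difference of -1.26 ± 0.22 (SE, adjusted p = 0.00596). SREBF2, the transcription factor of sterol synthesis, was 1.42, 1.52 and 1.51 against 2.18, 2.46, 2.24, 2.36 and 2.47, a difference of -0.86 ± 0.13 (SE, adjusted p = 0.0033). INSIG1, which retains the SREBP proteins in the endoplasmic reticulum, was -0.49, 0.21 and -0.52 against 0.71, 0.59, 1.03, 1.42 and 1.84 (difference -1.38, adjusted p = 0.0165), and did not pass without the MEF-CM pre-culture (0.0569) or the 41-day FGFC culture (0.0807). ACAT2 and HMGCS1, the early enzymes that build HMG-CoA, differed by -1.18 (adjusted p = 0.0406) and -1.02 (adjusted p = 0.0344), and each lost its call when any of 6 cultures was left out (adjusted p = 0.0548 to 0.116 and 0.0535 to 0.122). The rise was called in the fit without the MEF-CM pre-culture and in none of the other 7 fits that left out 1 culture. The count of falls depended on single cultures, with 14 without the E8 pre-culture of experiment 1, 4 without that of experiment 3 or the 30-day bFGF culture, 5 without the 30-day FGFC or the 41-day bFGF culture, 3 without the MEF-CM pre-culture and 2 without the 41-day FGFC culture.

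The sterol regulatory element bound by the SREBP proteins, TCACNCCAC, was searched in the same way in both lipid lists. It was found in 1 of 18 promoters of the cholesterol list, in 0 of 18 of the fatty acid list and in 0.905% of all 27305 genes. The match lies before SREBF2, whose sequence is shown for 120 bases from position 183 before the start, with the element in capitals.
SREBF2, chr22:41832922-41833041, plus strand: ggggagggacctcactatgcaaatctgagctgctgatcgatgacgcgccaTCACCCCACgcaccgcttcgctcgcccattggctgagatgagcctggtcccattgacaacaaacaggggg
The search covers these letters in this window only.

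Genes of lipid handling moved in both directions, with 4 of 16 higher and 6 lower, where 8.19% of all genes were higher and 19.2% lower. CPT1A, which carries long-chain fatty acids into oxidation, was 0.21, 0.39 and 0.28 in MEF-CM and -1.92, -1.85, -2.30, -2.29 and -2.72 in E8, a difference of 2.50 ± 0.21 (SE, adjusted p = 0.000214). CD36, a fatty acid uptake receptor, was well above background on every MEF-CM array and no E8 array, at least 3.41-fold higher (adjusted p = 0.000168). PDK4 and ANGPTL4, which fatty acids induce through PPAR receptors, differed by 1.26 (adjusted p = 0.012) and 1.06 (adjusted p = 0.0318). PDK4 did not pass without the 41-day FGFC culture (0.0617) or with normexp, where it differed by 0.28 (adjusted p = 0.0777), and ANGPTL4 when any of 5 cultures was left out (adjusted p = 0.059 to 0.0997) or with arm as a block (0.0538). In the opposite direction, ABCG1, a sterol exporter induced by the nuclear receptor LXR, was -4.30, -3.77 and -4.59 against -1.36, -1.58, -1.29, -1.22 and -1.23, a difference of -2.88 ± 0.20 (SE, adjusted p = 9.68e-05), or 7.38-fold lower. MYLIP, an LXR target, was 0.82, 0.78 and 0.49 against 1.83, 1.82, 2.21, 2.15 and 2.36, a difference of -1.38 ± 0.18 (SE, adjusted p = 0.00138). The groups did not overlap in CPT1A, ABCG1 or MYLIP. Without the 41-day FGFC culture 2 genes of the list rose and 2 fell.

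Genes of the amino acid response, which the transcription factor ATF4 induces when amino acids are short, were mostly lower: 11 of 19 fell and 1 rose (median -0.62), against 19.2% of all genes lower and 8.19% higher. ASNS, asparagine synthetase, was 5.00, 4.89 and 4.93 in MEF-CM and 6.54, 6.14, 5.90, 5.87 and 6.32 in E8, a difference of -1.21 ± 0.18 (SE, adjusted p = 0.0029). PSAT1, an enzyme of serine synthesis, was 4.61, 4.50 and 4.68 against 5.77, 5.56, 5.62, 5.47 and 5.87, a difference of -1.06 ± 0.14 (SE, adjusted p = 0.00173). CHAC1, which degrades glutathione, was 1.92, 2.12 and 2.15 against 4.09, 4.27, 3.11, 2.85 and 3.22 (difference -1.44, adjusted p = 0.0183), and did not pass when any of the 3 MEF-CM cultures was left out (adjusted p = 0.0564 to 0.0663). DDIT4, an inhibitor of mTORC1, was -0.38, 0.60 and -0.04 against 3.16, 3.31, 1.04, 1.26 and 1.30, with the E8 pre-cultures of experiments 1 and 2 well above the other 3. Its difference of -1.96 (adjusted p = 0.041) did not hold when any of 4 cultures was left out (0.0654 to 0.135), nor did that of FGF21, -2.22 (adjusted p = 0.041), for any of 6 (0.0533 to 0.114). Neither passed with arm as a block (0.0914 and 0.0807) or with quantile normalization (0.0744 and 0.0647). FGF21 was well above background on 5 of 6 and 5 of 10 arrays. GDF15, a secreted stress factor, rose: 3.16, 4.62 and 3.90 in MEF-CM and 2.74, 2.05, 0.57, 0.60 and 0.68 in E8, a difference of 2.56 ± 0.57 (SE, adjusted p = 0.0154), with adjusted p = 0.0644 and 0.0626 without the 41-day bFGF and FGFC cultures. ATF4 itself differed by -0.28 (adjusted p = 0.242). GDF15 was the single gene that rose, and 2 rose without the E8 pre-culture of experiment 2, with normexp or with the floor. The count of falls was 6, 5 and 6 without the MEF-CM pre-culture, the 41-day bFGF and the 41-day FGFC culture. In E8 Medium without FGF, 11 of the 19 genes were lower than with bFGF and 0 higher. There 11.1% of all genes were lower and 15.6% higher.

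Of 25 genes of glycolysis and hypoxia, 4 rose and 4 fell, against 8.19% and 19.2% of all genes, with a median of -0.21 near that of all genes. EGLN3, an oxygen-sensing prolyl hydroxylase, was 0.14, 0.16 and 0.50 in MEF-CM and -2.60, -2.46, -2.02, -2.17 and -1.68 in E8, a difference of 2.45 ± 0.22 (SE, adjusted p = 0.000316). PDK1, which inhibits pyruvate dehydrogenase, and SLC2A3, a glucose transporter, fell by 1.43 (adjusted p = 0.00358) and 1.09 (adjusted p = 0.00271). NDRG1, induced by hypoxia, differed by 1.19 (adjusted p = 0.0339), a call lost when any of 5 cultures was left out (0.067 to 0.109). Rises numbered 2 without the E8 pre-culture of experiment 3, the MEF-CM pre-culture or the 41-day FGFC culture.

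Among 20 selenoproteins and targets of the oxidative stress factor NRF2, 1 rose and 3 fell, no larger a part than the 8.19% and 19.2% of all genes. TXNRD3, a thioredoxin reductase, differed by -1.26 (adjusted p = 0.00255). The differences of SELENOP, a selenium carrier, -1.20 (adjusted p = 0.023), of SLC7A11, a cystine transporter, -1.05 (adjusted p = 0.0353), and of NQO1, a quinone reductase, 1.05 (adjusted p = 0.0477), were lost when any of 4, 4 and 6 cultures was left out (adjusted p up to 0.0983, 0.119 and 0.179). SLC7A11 and NQO1 also did not pass with arm as a block (0.0694 and 0.0788) or with quantile normalization (0.0941 and 0.119). SELENOP passed on 1 of its 2 probes. Falls numbered 1 when any MEF-CM culture was left out, and rises 0 when any MEF-CM culture or the E8 pre-culture of experiment 2 or 3 was. Of 10 iron genes 2 fell, near the 19.2% of all genes: ACO1, which senses iron, by 0.52 (adjusted p = 0.0398, lost when any of 6 cultures was left out, 0.0662 to 0.152), and TF, transferrin, which no array had well above background and which did not pass without the 41-day FGFC culture (0.0562).

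In the insulin and IGF list 3 of 15 genes rose and 1 fell, against 8.19% of all genes higher and 19.2% lower, and 2 fell with normexp and 3 with the floor. IGFBP3, a carrier of IGFs in serum, was -1.07, -1.17 and -1.08 in MEF-CM and -2.76, -2.64, -2.62, -2.76 and -2.31 in E8, a difference of 1.51 ± 0.15 (SE, adjusted p = 0.000405). IGFBP4 was -2.56, -2.04 and -2.53 against -0.89, -0.83, -0.96, -1.04 and -0.87, a difference of -1.45 ± 0.16 (SE, adjusted p = 0.000671), so these binding protein genes moved in opposite directions. IGFBP5 differed by 2.64 (adjusted p = 0.00954) and the ligand gene IGF2 by 1.71 (adjusted p = 0.0213), with the E8 pre-cultures of experiments 1 and 2 nearest to MEF-CM in both. With normexp IGFBP5 differed by 0.76 and still passed (adjusted p = 0.00983). IGFBP5 did not pass without the 41-day FGFC culture (0.0513), nor did IGF2 without the 41-day bFGF (0.0766) or FGFC culture (0.0759), and IGF2 passed on 1 of its 2 probes. Without the 41-day FGFC culture 1 gene rose.

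The largest rises reached 7.25 log2 units, against 8.19% of genes called higher at any size. ANXA1, a calcium-dependent membrane-binding protein, had the largest rise. Its normalized signal was 4.65, 4.29 and 5.19 in MEF-CM and -2.24, -2.34, -1.81, -2.29 and -4.02 in E8, with the 30-day FGFC culture lowest. The difference was 7.25 ± 0.46 (SE, adjusted p = 7.75e-05), or 152-fold. COL12A1, a fibril-associated collagen, was 3.89, 3.39 and 4.41 against -2.06, -2.02, -2.51, -2.68 and -3.50, a difference of 6.45 ± 0.36 (SE, adjusted p = 4.57e-05). ACTA2, smooth muscle actin, was 3.31, 3.14 and 3.57 against -2.52, -2.47, -1.71, -2.47 and -3.48, and ACTA1, skeletal muscle actin, 6.81, 6.57 and 7.03 against 0.78, 0.90, 1.47, 1.03 and -1.65. They rose by 5.87 and 6.30 (adjusted p = 5.22e-05 and 0.000459), and since actin transcripts are similar in sequence, a probe of either may take up signal of the other. SPP1, the secreted phosphoprotein osteopontin, was 4.62, 4.46 and 5.10 against -0.86, -1.13, -0.76, -0.70 and -0.86, a difference of 5.59 ± 0.18 (SE, adjusted p = 1.19e-05) the smallest SE among the 12 largest rises. CAV1, the coat protein of caveolae, differed by 5.29 (adjusted p = 0.000469), and NPPB, the natriuretic peptide B precursor, by 5.47 (adjusted p = 9.93e-05).

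The other 5 of the 12 largest rises were dim in E8. IGFBP7, a secreted IGF-binding protein, differed by 5.77 (adjusted p = 0.000148) and INSM1, a transcription factor of neuroendocrine cells, by 5.83 (adjusted p = 0.000192), with 7 and 3 of 10 E8 arrays well above background. HHLA1, a gene next to an endogenous retroviral repeat, differed by 5.70 (adjusted p = 0.00119) and CDH13, a cadherin anchored in the membrane by lipid, by 5.27 (adjusted p = 3.11e-05), with 4 and 1 such arrays. CH25H, cholesterol 25-hydroxylase, was well above background on no E8 array and at least 21.2-fold higher in MEF-CM (adjusted p = 0.000219). With normexp INSM1, HHLA1 and CDH13 differed by 2.94, 3.62 and 2.17 and still passed.

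Among the largest falls, PLA2G4C, a cytosolic phospholipase A2, was -1.40, -1.998 and -1.86 in MEF-CM and 2.63, 2.44, 2.65, 2.71 and 2.95 in E8, a difference of -4.43 ± 0.18 (SE, adjusted p = 1.93e-05). Neither group came near the other. IL17C, an epithelial cytokine, was -4.70, -5.00 and -4.47 against -0.92, -0.23, -0.75, -0.87 and -0.43, a difference of -4.09 ± 0.21 (SE, adjusted p = 3.11e-05). BST2, an interferon-induced membrane protein, was -2.55, -1.97 and -2.87 against 1.49, 1.32, 0.86, 1.14 and 1.68, a difference of -3.76 ± 0.25 (SE, adjusted p = 8.5e-05). BTBD17 was 0.44, -0.55 and -0.06 against 2.43, 2.83, 3.74, 3.94 and 4.88, a difference of -3.62 ± 0.52 (SE, adjusted p = 0.00245). CUZD1, SMIM24 and TSPEAR-AS2, a long non-coding RNA gene, differed by -3.94 (adjusted p = 0.000685), -3.93 (adjusted p = 2.76e-05) and -3.55 (adjusted p = 5.72e-05). Other genes were dim in MEF-CM: C10orf105, LEMD1 and CTCFL, with differences of -5.11, -3.89 and -3.81 (adjusted p up to 0.00354), were well above background on 1, 2 and 1 of 6 MEF-CM arrays. With normexp they differed by -2.32, -1.68 and -1.25 and still passed. CTCFL is the germline relative of the insulator protein CTCF.

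PEG3, a paternally expressed imprinted gene, stood apart because the MEF-CM cultures differed from each other. Its signal was -4.63, -1.90 and -7.02 in MEF-CM and -1.13, -1.07, -0.82, -0.83 and -0.48 in E8. The 41-day bFGF culture was the nearest to the E8 cultures and the 41-day FGFC culture the farthest, and 4 of 6 MEF-CM arrays were well above background. The difference of -3.65 ± 0.91 (SE, adjusted p = 0.0227) did not pass without the MEF-CM pre-culture (0.0649) or the 41-day FGFC culture (0.0534), and 1 of 2 probes passed.

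**Figure D5:**
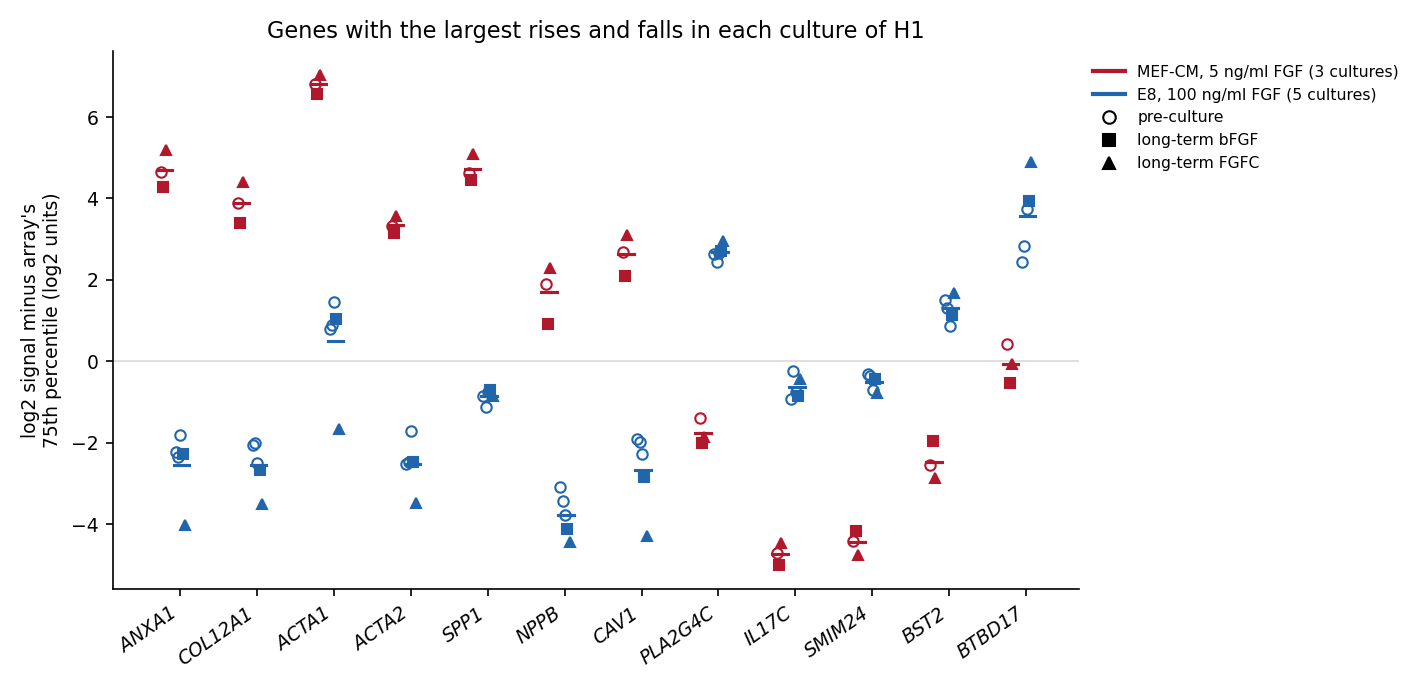
Normalized signal (vertical axis, log2 units) of 7 genes with the largest rises and 5 with the largest falls in each H1 culture, bars at group means, red MEF-CM and blue E8; open circles are pre-cultures, squares long-term bFGF and triangles long-term FGFC. ANXA1 lies between 4.29 and 5.19 in MEF-CM and between -4.02 and -1.81 in E8, and PLA2G4C between -1.998 and -1.40 in MEF-CM and 2.44 and 2.95 in E8.

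Matrix and adhesion genes rose more often than they fell, with 11 of 25 higher and 3 lower (median 0.68), against 8.19% and 19.2% of all genes. With normexp 17 rose, and 2 of the 3 falls concern genes that were not well above background on every E8 array. COL1A1, a chain of type I collagen, was 3.71, 3.99 and 4.09 in MEF-CM and 1.81, 2.15, 1.66, 1.68 and 1.24 in E8, a difference of 2.22 ± 0.21 (SE, adjusted p = 0.000369). CCN1, a matricellular protein, was 5.44, 5.42 and 5.73 against 3.90, 3.66, 3.61, 3.42 and 2.31, and CCN2, of the same family, 2.19, 2.01 and 2.70 against 0.70, 0.48, 0.30, 0.15 and -0.77. They rose by 2.15 and 2.13 (adjusted p = 0.00337 and 0.0032), with the 30-day FGFC culture the lowest E8 culture in both. FN1, fibronectin, was -1.12, -1.32 and -1.15 against -2.72, -2.76, -3.81, -3.99 and -6.01. Its difference of 2.67 (adjusted p = 0.0233) did not pass without the MEF-CM pre-culture, the 41-day bFGF or the 41-day FGFC culture (0.0669, 0.069 and 0.0901). ITGB1, the integrin subunit that pairs with most alpha chains, differed by 1.34 (adjusted p = 0.0203), with adjusted p = 0.0562, 0.0645 and 0.0793 without the same cultures. The count of rises was 7 without the E8 pre-culture of experiment 3, 5 without the MEF-CM pre-culture and 4 without either 41-day culture. Falls numbered 1 without the E8 pre-culture of experiment 3 or the 41-day bFGF culture and 0 without the 41-day FGFC culture.

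Of 17 cell cycle genes 5 rose and 2 fell, against 8.19% of all genes higher and 19.2% lower, and 4 of those that rose encode CDK inhibitors. MKI67, CDK1 and PCNA differed by 0.08, 0.00 and -0.07 and did not pass. CDKN1A, the p53-induced inhibitor p21, was -3.12, -1.60 and -2.61 in MEF-CM and -4.08, -4.67, -5.28, -5.23 and -4.57 in E8, a difference of 2.32 ± 0.38 (SE, adjusted p = 0.00436), with 7 of 10 E8 arrays well above background. MDM2, the ubiquitin ligase of p53 and itself a p53 target, was 0.61, 1.43 and 1.16 against -1.26, -1.21, -1.14, -1.17 and -1.24, a difference of 2.27 ± 0.19 (SE, adjusted p = 0.0002), on all 3 of its probes. Both were highest in the 41-day bFGF culture. CDKN1C, an imprinted inhibitor, differed by 1.08 (adjusted p = 0.00611). CDKN2B differed by 1.41 (adjusted p = 0.0175) but was well above background on 1 E8 array, did not pass without the MEF-CM pre-culture (0.0519) or the 41-day FGFC culture (0.087), and was -0.29 (0.398) with the floor and 0.05 (adjusted p = 0.771) with normexp. TOP2A, a topoisomerase of dividing cells, differed by -0.81 (adjusted p = 0.0172), with 0.0624 and 0.0785 without these cultures. Rises numbered 3 without the MEF-CM pre-culture or the 41-day FGFC culture, and falls 0 without either of these and 1 without the E8 pre-culture of experiment 3, a 30-day culture or the 41-day bFGF culture.

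Of 13 fibroblast and mesenchyme markers, 6 rose and 3 fell, against 8.19% and 19.2% of all genes, and the mean over the list was -2.34 to -2.22 in MEF-CM cultures and -3.51 to -2.84 in E8 cultures. The 6 that rose were ACTA2, COL1A1, TWIST1 (2.96, adjusted p = 0.0068), PDGFRA (1.74, adjusted p = 0.000364), SNAI2 (1.27, adjusted p = 0.00992) and COL1A2 (1.14, adjusted p = 0.0195). SNAI2, with 1 of 10 E8 arrays well above background, did not pass with normexp, where it differed by 0.12 (adjusted p = 0.371), with the floor, 0.16 (0.596), or without the 41-day FGFC culture (0.0529), nor COL1A2 without the 41-day bFGF (0.0545) or FGFC culture (0.0936), and TWIST1 passed on 1 of 2 probes. TWIST1 also did not pass with the first array of each culture (0.0573), with only bFGF cultures (0.0715) or with only long-term cultures (0.0921). With normexp PDGFRA and TWIST1 differed by 0.54 and 1.35 and still passed. COL3A1, LUM and FAP, which define fibroblasts, were not well above background on any of the 16 arrays, and DCN on 1 E8 array, so the falls of COL3A1, LUM and FAP carry no level, and they did not pass with normexp or quantile normalization. THY1, which ESCs also express, did not pass (-0.18).

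Against 8.19% of all genes higher and 19.2% lower, markers of other cell types were called as follows. Of 12 mesendoderm markers 4 were called higher and 1 lower: CER1 (above), LHX1 by 1.32 (adjusted p = 0.00277), MESP1 by 1.77 (adjusted p = 0.0214), and MIXL1 (adjusted p = 0.0114), while TBXT and EOMES, the defining genes of the primitive streak, were well above background on 3 and 1 of 6 MEF-CM arrays and 0 E8 arrays. MIXL1 was well above background on no E8 array and gives no fold, and MESP1 was on 1 of 10. Neither passed with normexp, where MESP1 differed by 0.22 (adjusted p = 0.253) and MIXL1 by 0.011 (adjusted p = 0.932), or with the floor, 0.44 (0.345) and -0.046 (0.911), so 2 of the 4 calls were lost in both. MESP1 also did not pass without the 41-day bFGF (0.0692) or FGFC culture (0.0521). Of 10 neuroectoderm markers 1 was called higher and 4 lower, but only 1 of the 4 was well above background on every E8 array, and the median went from -0.85 to -0.20 under quantile normalization. SIX6, an eye-field transcription factor, was -7.17, -7.83 and -7.10 in MEF-CM and -4.47, -2.91, -2.38, -1.53 and -3.19 in E8, well above background on 0 of 6 and 9 of 10 arrays, at least 9.02-fold lower in MEF-CM (adjusted p = 0.00133). PAX6 did not pass (1.31). Of 7 hepatic and yolk sac markers 2 were called higher and 3 lower, with 1 of the 3 well above background on every E8 array, and the median went from -1.12 to -0.46 under quantile normalization. AFP, alpha-fetoprotein, was 3.78, 3.07 and 4.14 in MEF-CM and -0.79, -0.64, 0.72, 0.65 and 0.87 in E8, a difference of 3.50 ± 0.45 (SE, adjusted p = 0.0015), while ALB was dim, at least 1.31-fold higher (adjusted p = 0.0225, or 0.0504, 0.0721 and 0.0976 without the E8 pre-culture of experiment 3, the MEF-CM pre-culture and the 41-day FGFC culture) and not called with normexp (0.21) or the floor, and TTR and HNF4A were not well above background on any MEF-CM array. In the trophoblast and amnion list 3 of 12 were called higher and 1 lower. GATA3, with 1 of 10 E8 arrays well above background, differed by 2.10 (adjusted p = 0.000238), but by 0.32 (adjusted p = 0.059) with normexp and 0.33 (0.374) with the floor, so its call was lost in both. The neural crest list had 1 of 7 higher and 1 lower. The part of other cell types in the differences above was not tested.

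Cultures of other lines gave values for the same genes. KhES-1 is a human ESC line, and 201B7 and 253G1 are human iPSC lines. The 6 cultures of KhES-1 and 201B7 on fibroblast feeders, with 5 and 10 ng/mL of FGF, were compared with 3 cultures of 253G1 in E8 Medium with 100 ng/mL. Each line gave a pre-culture with bFGF and a long-term culture each with bFGF and FGFC, of 30 days for KhES-1, 50 for 201B7 and 36 for 253G1. They share no culture with the H1 comparison, but cell type, line, feeders, medium, dose and days differ together, and mouse RNA of the feeders may add signal, which was not tested. Cultures of the same line are not independent. Because all E8 cultures here are of 253G1, the p-values do not measure the spread between lines in E8 Medium. In this comparison 20.2% of genes passed, 3.64% higher and 16.6% lower. Of the 3636 H1 genes with a call well above background, 702 (19.3%) were called the same way and 94 (2.59%) the opposite way. DUSP6 was 1.496, 1.83 and 1.92 in the lowest, median and highest feeder culture and 4.45, 4.94 and 5.07 in 253G1, a difference of -3.03 (adjusted p = 0.0004). Of the 19 FGF/ERK targets 9 were lower and 0 higher there, with a median of -0.66. PLA2G4C differed by -4.10 (adjusted p = 0.0004), ABCG1 by -3.04 (adjusted p = 0.000474), SREBF1 by -1.45 (adjusted p = 0.00239) and ELOVL6 by -0.87 (adjusted p = 0.0215). MT1G was 1.37, 2.20 and 2.81 against -2.01, -1.57 and -0.21, a difference of 3.42 (adjusted p = 0.00519), and CPT1A rose by 1.90 (adjusted p = 0.00501). NODAL and LEFTY2 differed by 1.97 (adjusted p = 0.014) and 4.59 (adjusted p = 0.00353). These genes moved in the direction they had in H1.

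Several other H1 results did not pass there in the direction they had in H1. ANXA1 differed by 1.02 (adjusted p = 0.207) and COL12A1 by 1.23 (adjusted p = 0.0566). COL1A1, CCN1, CCN2 and AFP differed by 0.21 (adjusted p = 0.773), -0.05 (adjusted p = 0.947), -0.30 (adjusted p = 0.615) and -0.46 (adjusted p = 0.454). IER3, which rose in H1, was lower on feeders by 1.02 (adjusted p = 0.0138). Of the 12 largest rises in H1, all 12 had a difference above 0 and 7 passed, against 37.7% of all genes above 0 and 3.64% called higher. Of the 12 largest falls all 12 were below 0 and 10 passed, against 62.3% below 0 and 16.6% called lower. Both sets were picked by size and by signal well above background in the higher group. All genes were not picked in this way, so these shares are not a like reference. Of the 3636 H1 genes called and well above background, 19.3% were called the same way there. Whether the effect differed between H1 and these lines was not tested.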

How the data were processed

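RNA of each culture was labelled with Cy3 and hybridised to 2 Agilent SurePrint G3 Human 8x60K arrays, 1 colour. The deposited intensity is the processed signal of Agilent Feature Extraction 10.7.3.1, as named in the authors' files, which is background-subtracted and not scaled between arrays. The authors set signals under 1 to 1, scaled each chip to its 75th percentile and called 2-fold differences of averages without a test. The series' value table holds the same intensity values as deposited per array (all 62976 spots equal) and was used only for this check.

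From these intensities, 4259 control spots and spots marked as outliers were left out, signals under 1 were set to 1, log2 was taken, the 75th percentile of each array was subtracted, repeated spots were averaged per probe, and both arrays of a culture were averaged to 1 replicate. Duplicate arrays correlated at r = 0.982 to 0.993 across probes. The number of cultures, 3 against 5, limits the precision. limma 3.58.1 in R 4.3.3 fitted MEF-CM minus E8 on these 8 cultures with no covariate. In data simulated with 100 probes changed 2-fold and 100 changed 4-fold among 42405, this fit found 31 and 77 of them, with 8 false calls. The simulated noise was independent between cultures, and far fewer probes were changed than passed in the data. These counts therefore do not give the sensitivity or the false calls of the real comparison. DUSP6 was also tested with the exact permutation test of scipy 1.17.1, whose two-sided p is 2 times the smaller tail. Of the probes, 25715 carry a gene symbol and 16690 do not. A gene is represented by its probe with the highest mean signal. Where a gene was well above background on no array of its lower group, the fold is a lower bound against the lowest signal well above background on each array.

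The genes named are the 12 largest rises and 12 largest falls that passed the test without overlap and, in the higher group, were detected above background by all arrays, up to 4 members of each list with the largest change, DUSP6, and POU5F1, SOX2, NANOG and GAPDH. Further list members and markers are named after their values were seen. The members and lists were chosen with earlier results of these data known. Alternatives covered normalization, scaling, background correction, dim probes, a floor, single arrays, slide, scan day, arm, the choice of cultures, the variance model and leaving out each culture. Some genes that the rule names or the lists hold are not reported here one by one, and they stay in the counts.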

Additional observations from a re-analysis of the deposited data

Results flagged for a closer look

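Of 151 named genes, 8 had 1 E8 culture far from the other 4 (its gap to the nearest, divided by the range of the 5 cultures, above 0.71), and chance flags about 1 in 20. In 7 of these genes the culture was the 30-day FGFC culture, at the low end. The ratio was 0.757 for ANXA1, where this culture was at -4.02 and the others at -2.34 to -1.81, and 0.781 for ACTA1, at -1.65 against 0.78 to 1.47. Among the metallothioneins it was 0.717 for MT1G, 0.732 for MT1E, 0.752 for MT1H and 0.859 for MT1X, and for BMP4 it was 0.788, with -4.64 against -3.90 to -3.70. These genes are not independent, since MT1 transcripts are near-identical. The 8th gene, MT4, had the E8 pre-culture of experiment 2 at -8.01 against -6.65 to -6.47, a ratio of 0.883, and was not well above background on any array.

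In 3 named genes the difference between MEF-CM and E8 had opposite signs in the long-term bFGF and the long-term FGFC cultures. The bFGF and FGFC differences were 0.056 and -0.12 for ETV4, 0.11 and -1.04 for ETV5, and -0.47 and 0.03 for SLC30A1. With 1 culture of each kind per medium these differences were not tested, and none of these genes passed in the comparison of the media.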

How the results depend on the processing

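The number of probes passing limma, 10679, was 7019 with quantile normalization, 6487 among probes well above background, 17655 with the floor, and 2913 with only the bFGF cultures, which leaves 2 against 4 cultures. It ranged from 3416 to 13419 with 1 culture left out. Slide and scan day as random blocks gave 15542 and 14005, with estimated correlations of -0.42 and -0.10. Each scan day held only 1 medium, so these blocks cannot separate medium from scan day. A negative correlation lowers the estimated error between blocks, so the higher counts do not measure a clearer effect. Both settings are among the alternatives counted below. The scan day alternative was chosen after seeing the data. The number of 2-fold probes, 8063, was 4074 with quantile normalization, 1295 with normexp and 2944 among probes well above background, and 6583 to 9354 with 1 culture left out.

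With the floor, CDKN2B became -0.29 and MIXL1 -0.046. NANOG became -0.026 with the second arrays, -0.043 with arm as a block, -0.17 with only long-term cultures and -0.050 to 0.077 with 1 culture left out. ETV4 became -0.072 with the second arrays, -0.032 with long-term cultures and -0.015 to 0.094 with 1 culture left out. SLC30A1 became -0.22 and CRIPTO -0.087 with long-term cultures. Over the 151 named genes and the alternatives other than leaving out cultures, 1948 values kept direction and call, 131 lost and 17 gained the call and 9 reversed. With 1 culture left out, 1070 kept both, 131 lost and 3 gained the call and 4 reversed. Calls were lost for 46 named genes with only the bFGF cultures, DUSP5, ETV1 and INHBE among them, and for 24 with only long-term cultures, IER3, CER1 and MT1X among them, both with fewer cultures. The first array of each culture lost 12, among them ACAT2, HMGCS1, ACO1 and TOP2A, the second 8, the 75th percentile over bright probes 4 and the 6 further E8 cultures 2. The causes were not tested. With the culture arm (pre-culture, long-term bFGF or long-term FGFC) as a block, 8856 probes passed. The arm is a condition and not a replicate number. By experiment number, no paired analysis was possible because all 3 MEF-CM cultures carry number 1, so the groups share fewer than 2 numbers.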
